A study of Mus musculus with 10 samples.

Results

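Beta cells of the pancreatic islet couple blood glucose to insulin release through the genes described here. Glucose enters through the transporter encoded by Slc2a2, and the phosphatase encoded by G6pc2 opposes its first phosphorylation. The ATP made from glucose closes the KATP channel, built from the pore subunit Kcnj11 and the sulfonylurea receptor Abcc8, and the membrane depolarises. The two-pore channel Kcnk16 carries potassium out and limits that depolarisation, and the voltage-gated channels Cacna1a (P/Q type) and Cacna1d (L type) admit the calcium that triggers exocytosis. The incretin receptor Glp1r strengthens release, and the secreted peptide Ucn3, a marker of mature beta cells, acts on delta cells to restrain it. These 9 genes were taken by gene symbol. Each had 1 transcript cluster with a single symbol on the array, so all 9 were measured, out of 19938 genes tested.

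RNA of whole mouse pancreas from 10 samples of mixed strain background was profiled on the Mouse Gene 1.0 ST array of Affymetrix. The 5 DKO samples had the genotype PDX1Cre, Mst1-/-, Mst2L/L, in which the kinase MST1 was lost from all cells and MST2 only where Cre acted under the PDX1 promoter, a promoter active in pancreatic progenitors and later in beta cells. Their reference was 5 samples labelled Control, whose alleles, Cre included, the labels do not give. No age, sex or animal number is given for either group, so the p-values reflect only how these arrays scatter, which may be technical. Xist, an RNA of female cells, exceeded 10 in DKO replicates 1 and 4 and in control replicates 2, 3 and 4. The remaining arrays had Xist levels of 5.13 to 5.75 and high levels of the Y-linked gene Eif2s3y, so each group held samples of both sexes, with 2 of 5 DKO and 3 of 5 control arrays of the female pattern. Values are log2 levels as deposited, array medians lay between 7.12 and 7.15, and the number of arrays limits the precision. Differences are DKO minus control on the log2 scale, tested with limma over all genes and adjusted by Benjamini-Hochberg, with a threshold of 0.05. Stk4, the gene of MST1, measured 5.13 ± 0.06 in DKO and 5.15 ± 0.09 in control pancreas (SD, n = 5 each; limma adjusted p = 0.884) and so gave no check of the genotype, and Stk3, the gene of MST2, was not analysed here. One array stood apart: the mean of 16 hepatocyte genes was 10.63 in DKO replicate 1, against 6.38 to 7.09 in the other DKO arrays and 6.47 to 7.20 in the control arrays. DKO replicate 1 also held the lowest level of all 10 arrays for 5 of the 9 members, so changes are given with and without it where it moves them by over 1.5 times or ends a call.

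Cacna1a, a calcium channel gene, and Kcnk16, a potassium channel gene, fell in DKO pancreas, and no member rose. Thus 2 of 9 members were called lower, where 0.366% of the 19938 genes were, and 2.44% were called in either direction. The count of 2 held in 1 of the 10 fits that leave out an array, the one without control replicate 1. In the other 9, the one without DKO replicate 1 among them, it was 1, with Cacna1a called and Kcnk16 not. At an unadjusted p under 0.05, 5 members were lower, where 5.66% of all genes were (14.8% in either direction), and 8 of the 9 had a change below 0, as had 52.4% of all genes. The median change was -0.27 over the members and -0.01 over all genes. The members were chosen with earlier results of these arrays known, so these counts describe the set and do not test it. In whole pancreas, fewer beta cells, less RNA per beta cell and changes in the number or RNA of other cells cannot be told apart.

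**Figure D1:**
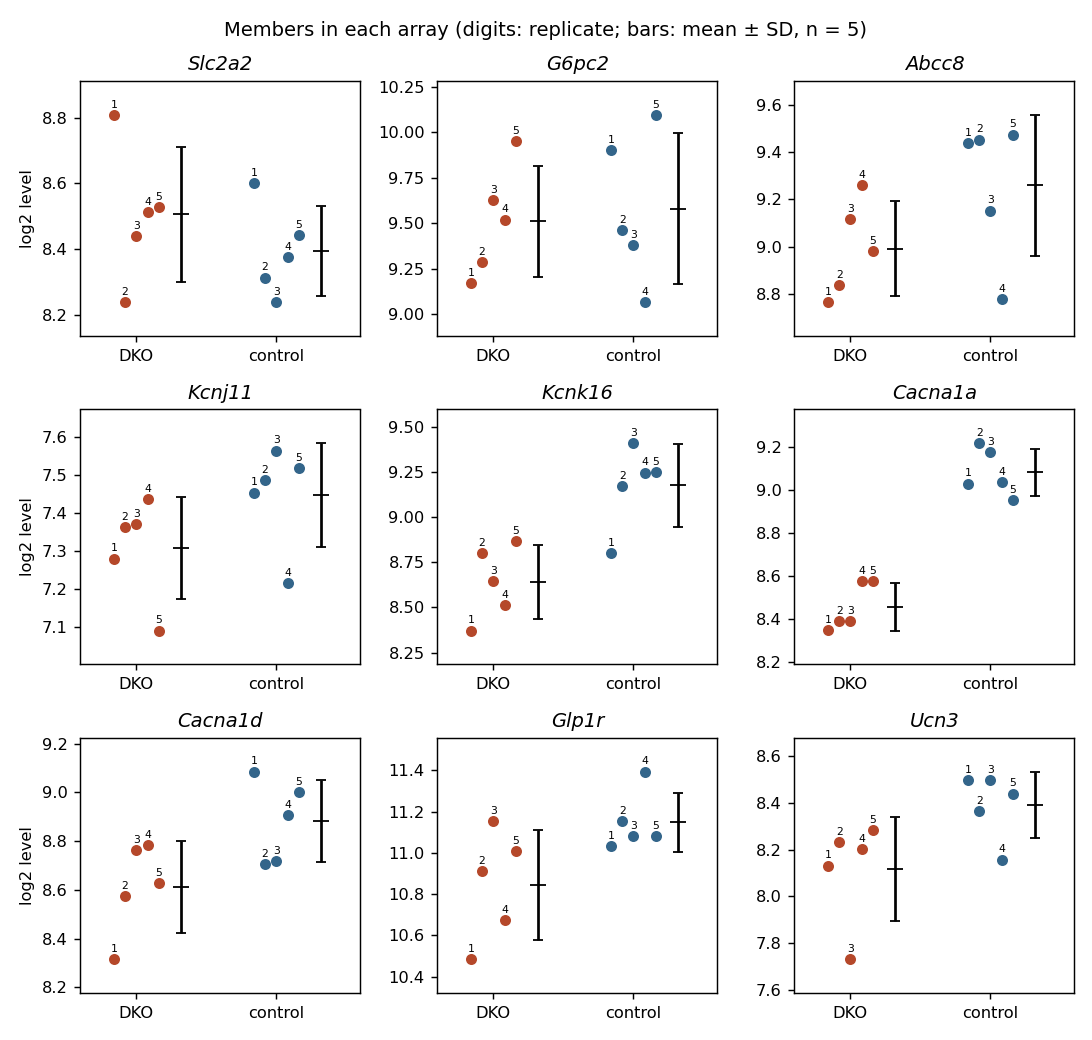
Log2 level (vertical axes, each with its own range) of the 9 genes in each of the 5 DKO arrays (red, left) and 5 control arrays (blue, right); digits give the replicate and bars the mean ± SD. Only for Cacna1a do the groups not overlap, with DKO arrays at 8.35 to 8.58 and control arrays at 8.95 to 9.22.

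Cacna1a codes for the pore subunit of the P/Q-type calcium channel, known from nerve terminals and from islet cells. Its level was 8.35, 8.39, 8.39, 8.57 and 8.58 in DKO replicates 1 to 5, against 9.03, 9.22, 9.17, 9.04 and 8.95 in control replicates 1 to 5. Every DKO array lay below every control array, a pattern that 1.28% of all genes shared, and no other member did. Cacna1a fell by 0.63 on the log2 scale (SE 0.07, 95% interval -0.78 to -0.47, limma adjusted p = 0.00111), a DKO to control ratio of 0.648. An exact two-sided permutation test over the 252 splits of the arrays gave p = 0.00794, the smallest it can give. The fall was between 0.59 and 0.66 on leaving out any 1 array, with limma adjusted p-values of 0.00226 to 0.00453. Without DKO replicate 1 the change was -0.60.

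Cacna1d codes for an L-type calcium channel that opens at lower voltages than most of its class. It measured 8.32, 8.58, 8.76, 8.78 and 8.63 in DKO replicates 1 to 5, against 9.08, 8.71, 8.72, 8.91 and 9.001 in control replicates 1 to 5. The groups overlapped, since DKO replicates 3 and 4 stood above control replicates 2 and 3. Its change of -0.27 (SE 0.10, 95% interval -0.50 to -0.04) did not pass over all genes (limma adjusted p = 0.252, exact permutation p = 0.0476). The lowest value was that of DKO replicate 1, and without this array the change was -0.20 (limma adjusted p = 0.319). Whether Cacna1a and Cacna1d differ in their response was not tested.

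Kcnk16 codes for a two-pore potassium channel that in the pancreas is known chiefly from islets. The DKO arrays gave 8.37, 8.80, 8.64, 8.51 and 8.87, and the control arrays 8.80, 9.17, 9.41, 9.25 and 9.25, in the order of their replicate numbers. Control replicate 1 was the one control array within the DKO range, while the other control arrays lay above all DKO arrays. Kcnk16 fell by 0.54 (SE 0.12, 95% interval -0.81 to -0.27, limma adjusted p = 0.0478, exact permutation p = 0.0238), a DKO to control ratio of 0.690. The adjusted p lay close to the threshold. The call was kept without control replicate 1 (adjusted p = 0.0158) and lost without any other single array, DKO replicate 1 included (change -0.47, adjusted p = 0.0933), with a highest adjusted p of 0.124 without control replicate 3. It was also lost with array medians subtracted (0.0503) and with the level of Xist as a covariate (0.0769). Kcnk5, a channel of the same family and its neighbour on chromosome 14 in the RefSeq order, measured 7.20 ± 0.21 in DKO and 7.27 ± 0.28 in control pancreas (SD, n = 5 each, limma adjusted p = 0.841). The change of Kcnk5 was -0.07, and -0.01 without DKO replicate 1 (limma adjusted p = 0.976).

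The 250 bases before the annotated start of Kcnk16 are shown because it is a called gene with an entry in the RefSeq promoter table (build GRCm38.p6), and those of Ucn3 and of the downstream of 2 annotated G6pc2 starts because they hold the same letters. Of the 9 members 6 had entries, with 8 starts in all. Capitals mark CATCTG or its complement CAGATG, an E-box of the kind bound by NEUROD1, and TGCTGA or its complement TCAGCA, part of the element bound by MAF factors. Each motif was searched on both strands, and the motifs do not overlap in these windows.
Kcnk16 (chr14:20269270-20269519, minus strand): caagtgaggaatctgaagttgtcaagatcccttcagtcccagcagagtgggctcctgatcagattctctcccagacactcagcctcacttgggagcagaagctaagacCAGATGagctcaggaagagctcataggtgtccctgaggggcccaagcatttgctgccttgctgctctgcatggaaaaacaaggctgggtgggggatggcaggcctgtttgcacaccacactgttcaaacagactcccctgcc
Ucn3 (chr13:3945350-3945599, minus strand): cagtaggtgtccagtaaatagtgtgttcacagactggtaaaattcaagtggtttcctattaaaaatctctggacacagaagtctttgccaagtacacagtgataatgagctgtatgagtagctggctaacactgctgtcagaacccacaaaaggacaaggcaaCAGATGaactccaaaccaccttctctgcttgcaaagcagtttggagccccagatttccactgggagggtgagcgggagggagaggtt
G6pc2 (chr2:69219699-69219948, plus strand): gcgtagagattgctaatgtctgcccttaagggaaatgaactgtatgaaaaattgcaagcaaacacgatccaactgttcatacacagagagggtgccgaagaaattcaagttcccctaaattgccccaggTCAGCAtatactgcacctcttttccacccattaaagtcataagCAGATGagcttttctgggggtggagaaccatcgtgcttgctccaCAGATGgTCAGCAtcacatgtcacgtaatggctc
The E-box letters were found in 3 of 8 member windows, these 3, and in 14.4% of 32851 windows of the same length before annotated mouse starts. The MAF letters occurred in 1 member window, that of G6pc2, and in 16.1% of all windows. GGAATG, the core recognised by the TEAD partners of YAP, occurred in 1 member window, the upstream start of G6pc2, and in 12.6% of all. GTTAAT, part of the site of HNF1 factors, occurred in 0 member windows and in 6.43% of all. Of these 3 genes Kcnk16 passed the test in DKO pancreas, and Ucn3 and G6pc2 did not.

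At the entry of the pathway, neither gene passed the test. Slc2a2 codes for the low-affinity glucose transporter of beta cells, which hepatocytes also use. It was the only member with a mean above that of control pancreas, at 8.81, 8.24, 8.44, 8.51 and 8.53 in DKO replicates 1 to 5, against 8.60, 8.31, 8.24, 8.38 and 8.44 in control replicates 1 to 5. The groups overlapped over most of their range. The change was 0.11 (SE 0.10, 95% interval -0.11 to 0.33, limma adjusted p = 0.638). The highest was DKO replicate 1, whose hepatocyte mean stood apart, and without it the change was 0.04 (adjusted p = 0.848). How much of the Slc2a2 signal in that array came from hepatocytes was not tested. With the hepatocyte mean as a covariate the change was likewise 0.04 (adjusted p = 0.821).

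G6pc2 codes for the islet form of the glucose-6-phosphatase catalytic subunit, which sets back the glucose signal. DKO replicates 1 to 5 gave 9.17, 9.29, 9.62, 9.52 and 9.95, and control replicates 1 to 5 gave 9.90, 9.46, 9.38, 9.07 and 10.10. The control arrays alone spanned more than the DKO arrays, so the groups could not be separated. The mean was 9.51 ± 0.31 in DKO and 9.58 ± 0.42 in control pancreas (SD, n = 5 each), a change of -0.07 (SE 0.20, 95% interval -0.51 to 0.37, limma adjusted p = 0.893). Its sign turned on leaving out DKO replicate 1, control replicate 1 or control replicate 5 (0.02, 0.01 and 0.06). Of the members it had the widest spread between control arrays. Control replicates 1 and 5, the control arrays with low Xist, held the highest control levels. The DKO arrays with high Xist gave 9.17 and 9.52, and those with low Xist 9.29, 9.62 and 9.95, so these overlapped. With the level of Xist as a covariate the change of G6pc2 was -0.17 (SE 0.15, limma adjusted p = 0.668). Whether G6pc2 differs between the sexes was not tested.

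The paired subunits of the KATP channel are encoded next to each other on chromosome 7. Abcc8, the sulfonylurea receptor, measured 8.76, 8.84, 9.12, 9.26 and 8.98 in DKO replicates 1 to 5, against 9.44, 9.45, 9.15, 8.78 and 9.47 in control replicates 1 to 5. Control replicate 4 was as low as the lowest DKO arrays, and the change of -0.27 (SE 0.14, 95% interval -0.58 to 0.05) did not pass (limma adjusted p = 0.417). Without control replicate 4 the change was -0.39 (adjusted p = 0.111).

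Kcnj11, the pore of the same channel, gave 7.28, 7.36, 7.37, 7.44 and 7.09 in the DKO arrays and 7.45, 7.49, 7.56, 7.21 and 7.52 in the control arrays. Here control replicate 4 was the one control array inside the DKO range, whereas for Abcc8 control replicate 3 lay inside it as well. The change was -0.14 (SE 0.08, 95% interval -0.32 to 0.04, limma adjusted p = 0.461). It moved to -0.20 without control replicate 4 (adjusted p = 0.211) and to -0.08 without DKO replicate 5 (0.717). Control replicate 4 was the lowest control array for 4 members in all, Abcc8, Kcnj11, G6pc2 and Ucn3, and the highest for Glp1r. In the same array the mean of 10 islet transcription factors was 8.07, the lowest of the controls, whose other arrays lay between 8.28 and 8.36. Pdx1 (8.84) and Nkx2-2 (9.19) went the other way, each highest of the controls in that array, while each other gene of the list was lowest there.

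Glp1r codes for the receptor of glucagon-like peptide, which raises cAMP in beta cells and has also been reported in acinar cells of mice. It was 10.48, 10.91, 11.15, 10.68 and 11.01 in DKO replicates 1 to 5, against 11.03, 11.15, 11.08, 11.39 and 11.08 in control replicates 1 to 5. All DKO arrays but replicate 3 lay below every control array. The spread was 0.27 in DKO and 0.14 in control arrays (SD, n = 5 each). The change of -0.30 (SE 0.12, 95% interval -0.57 to -0.03) did not pass over all genes (limma adjusted p = 0.279, exact permutation p = 0.0556). DKO replicate 1 was lowest, and without it the change was -0.21 (adjusted p = 0.339). Without control replicate 4, the highest array, it was -0.24 (adjusted p = 0.355).

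Ucn3, the peptide urocortin of mature beta cells, measured 8.13, 8.23, 7.73, 8.20 and 8.28 in DKO replicates 1 to 5, against 8.50, 8.37, 8.50, 8.16 and 8.44 in control replicates 1 to 5. Control replicate 4 alone lay inside the DKO range, and DKO replicate 3 lay far below the other 4 DKO arrays. The change was -0.28 (SE 0.11, 95% interval -0.51 to -0.04, limma adjusted p = 0.263, exact permutation p = 0.0317). Without DKO replicate 3 it was -0.18 (adjusted p = 0.284). Sstr2, a somatostatin receptor gene of the receptor list, was at 7.82 ± 0.24 in DKO and 8.49 ± 0.33 in control pancreas (SD, n = 5 each). Its change of -0.68 missed the threshold (limma adjusted p = 0.0552). The other somatostatin receptor genes of the list had changes of -0.10 for Sstr1 (0.594), -0.07 for Sstr3 (0.717) and -0.01 for Sstr5 (0.952).

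**Figure D2:**
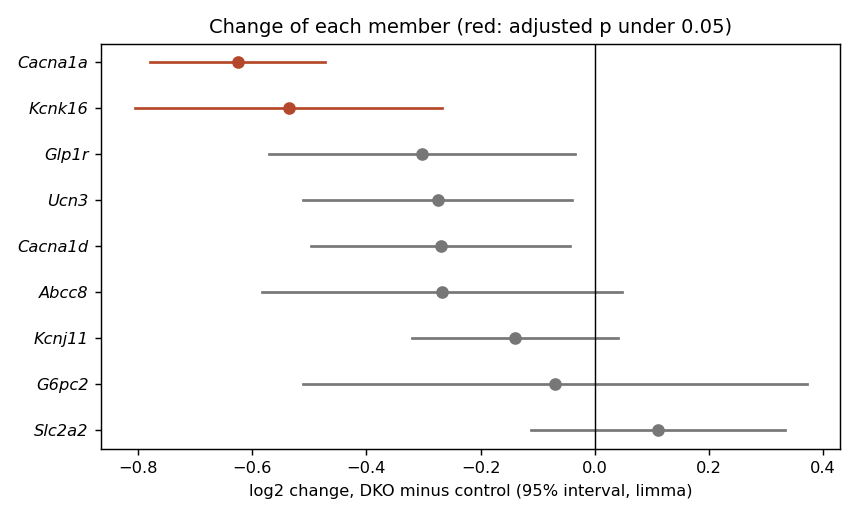
Log2 change, DKO minus control, of each of the 9 genes with its 95% interval from limma; red marks adjusted p under 0.05. The change runs from -0.63 for Cacna1a to 0.11 for Slc2a2, and the intervals of Abcc8, Kcnj11, G6pc2 and Slc2a2 include 0.

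The rest of the machinery was described by 4 lists that hold none of the 9 members. Over all genes 2.08% were called higher and 0.366% lower. Of 14 measured genes of glucose uptake and metabolism 1 rose and 0 fell, with a median change of 0.07. The riser was Gpd2, the mitochondrial enzyme of the glycerol phosphate shuttle, which carries reducing power from glycolysis into mitochondria. Gpd2 measured 9.27, 9.31, 9.12, 9.21 and 9.52 in DKO replicates 1 to 5, against 8.88, 8.82, 8.89, 8.89 and 8.85 in control replicates 1 to 5. The groups did not overlap, a pattern whose share over all genes was not counted in this direction. The change was 0.42 (SE 0.07, limma adjusted p = 0.00913). The liver phosphatase gene G6pc stood 1.11 higher in DKO pancreas without passing (limma adjusted p = 0.600). It was at 11.30 in DKO replicate 1, the array with the high hepatocyte mean, and at 5.74 to 6.33 in the other 4 DKO arrays, against 5.82 to 6.05 in control arrays. Without DKO replicate 1 its change was 0.05 (adjusted p = 0.839).

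Of 22 measured potassium channel genes 1 fell and 0 rose, with a median change of -0.08, and 17 had a change below 0. The one was Kcnk3, a two-pore channel like Kcnk16 that sets resting potential and closes in acid. It was 8.69, 8.80, 8.73, 8.64 and 8.69 in DKO replicates 1 to 5, against 9.32, 9.27, 9.35, 9.05 and 8.96 in control replicates 1 to 5. Kcnk3 fell by 0.48 (SE 0.08, limma adjusted p = 0.0102) with no overlap between the groups, a pattern that 1.28% of all genes shared in this direction. Kcnq1, a delayed rectifier, had a change of -0.32 (limma adjusted p = 0.262), Kcnn1 one of -0.23 (0.197) and Kcnn3, another small conductance calcium-activated channel, one of 0.25 (0.130). Among 22 further calcium, sodium and cation channel genes limma called 0, with 2 at an unadjusted p under 0.05. These were the T-type calcium channel Cacna1i (-0.17, limma adjusted p = 0.182) and the calcium channel beta subunit Cacnb4 (0.22, 0.137). The median change of that list was -0.03.

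Of 25 measured receptor and cAMP signalling genes limma called 0, while 5 had an unadjusted p under 0.05, 4 of them lower. The median change was -0.10, and 20 of the 25 had a change below 0. Beside Sstr2, the smallest p-values were those of the phosphodiesterase Pde8b, which degrades cAMP (change 0.53, limma adjusted p = 0.0591), the adenylyl cyclase Adcy9 (-0.26, 0.0942) and the phosphodiesterase Pde3b (-0.25, 0.154). The other channels and receptors of the 4 lists had adjusted p-values above the threshold.

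**Figure D3:**
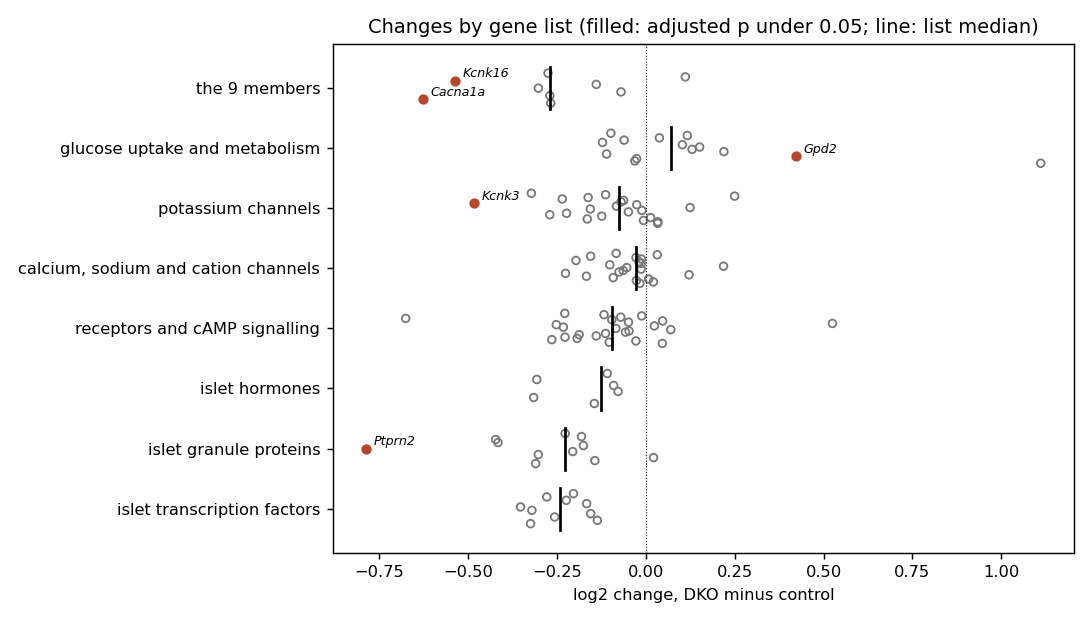
Log2 change, DKO minus control, of every measured gene in the 9 members, in 4 lists of related genes and in 3 lists of islet markers; filled points have a limma adjusted p under 0.05 and are named, and lines are list medians. The members' median (-0.27) lies beside those of the islet transcription factors (-0.24) and islet granule proteins (-0.23).

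Most islet marker genes had a change below 0, and Ptprn2 alone passed the test. All 6 measured hormone genes had a change below 0 (median -0.13), none past limma's threshold and 1 at an unadjusted p under 0.05, Iapp (-0.32, limma adjusted p = 0.0971). All 10 measured islet transcription factor genes were likewise below 0 (median -0.24), none past the threshold and 3 at an unadjusted p under 0.05, namely Nkx2-2 (-0.35, adjusted p = 0.0605), Insm1 (-0.32, 0.0881) and Mafa (-0.26, 0.157). Of 11 granule protein genes 1 fell past the threshold, Ptprn2 (-0.79, limma adjusted p = 0.00971). At an unadjusted p under 0.05, 5 were lower, among them Chga (-0.31, adjusted p = 0.134), Scg5 (-0.42, 0.173) and Scg3 (-0.42, 0.317). In this list 10 genes had a change below 0, and the median was -0.23. The exception was Cpe, a processing enzyme of prohormones, at 0.02 (0.942). The mean hormone level was 11.70 to 11.89 in DKO and 11.84 to 12.12 in control arrays. The mean of the islet transcription factors was 7.81 to 8.13 in DKO and 8.07 to 8.36 in control arrays. The granule mean was 9.19 to 9.53 in DKO and 9.35 to 9.86 in control arrays. These ranges overlapped. For Chga, Nkx2-2 and Ptprn2 every DKO array lay below every control array, a pattern that 1.28% of all genes shared. The defining markers were present in every array, with Ins2 at 11.29 ± 0.03 in DKO and 11.37 ± 0.05 in control pancreas (SD, n = 5 each).

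The changes of the members were therefore also read with an islet mean in the fit as a covariate. The hormone mean was planned, and the granule and transcription factor means were added after seeing the data. The change of Cacna1a was -0.54, -0.53 and -0.50 beside the hormone, granule and transcription factor means, with limma adjusted p-values of 0.0378, 0.0309 and 0.0671. For Kcnk16 it was -0.48, -0.48 and -0.47 (0.319, 0.272 and 0.330). Abcc8, by contrast, had changes of -0.09, 0.00188 and 0.13 in these fits, and Kcnj11 of -0.01, -0.04 and -0.04. Since the means differ between the groups, such a fit also takes up part of the group difference, and it calls 78, 115 and 37 genes over all, against 487 without a covariate.

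Other cell types were given the same look. The acinar mean (10 genes) was 11.91 to 12.37 in DKO and 12.38 to 12.55 in control arrays. In this list 9 of the 10 genes had a change below 0 (median -0.16), as had 52.4% of all genes. At an unadjusted limma p under 0.05, 3 were lower, where 5.66% of all genes were. For Cpa1, Rbpjl and Zg16 every DKO array lay below every control array, a pattern that 1.28% of all genes shared. Past the threshold 1 gene, Rbpjl, was lower (-0.45, limma adjusted p = 0.0225). Its call was lost in 9 of 26 settings, among them those without DKO replicate 4 (0.0562), control replicate 3 (0.0689) or control replicate 5 (0.0608). The duct mean (10 genes) was 10.34 to 10.52 in DKO and 9.97 to 10.07 in control arrays, with 4 genes called higher, Cldn4 (1.37), Krt7 (1.22), Krt19 (0.41) and Krt8 (0.30). Krt19 lost its call in 4 of 26 settings (highest limma adjusted p = 0.226), and Cldn4 and Krt7 in 1 each (0.0675). The Krt8 call (limma adjusted p = 0.0379) was lost in 16 of 26 settings, among them 8 of the 10 that leave out an array, and was kept only without DKO replicate 3 (0.0459) or DKO replicate 4 (0.0262) among those 10. Without DKO replicate 1 the change of Krt8 was 0.26 (limma adjusted p = 0.0668). The duct gene Sox9 ran the other way without passing (-0.26, limma adjusted p = 0.149), and Muc1 had a change of -0.03 (0.817). For Sox9 every DKO array lay below every control array, a pattern that 1.28% of all genes shared. For Krt18 and the 4 duct genes called higher every DKO array lay above every control array. The share of all genes in that direction was not counted. Neuronal and Schwann cell genes, which matter for Cacna1a, had a mean of 6.63 to 6.88 in DKO and 6.64 to 6.85 in control arrays, with 0 of 13 past limma and 1 at an unadjusted p under 0.05. Stmn2 had the largest spread of that list (SD 0.36 in DKO and 0.35 in control arrays, n = 5 each). How well the mean measures nerve content was not tested. Smooth muscle genes had 0 of 7 past limma and 1 at an unadjusted p under 0.05, and immune cell genes 0 of 8 and 1. With the acinar mean as a covariate, added after seeing the data, the change of Glp1r was -0.02 (limma adjusted p = 0.921), that of Cacna1d -0.11 (0.635), that of Kcnk16 -0.33 (0.289) and that of Cacna1a -0.58 (0.0291). The acinar means of the groups did not overlap, so this fit too takes up part of the group difference.

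Agreement within the groups was then compared, with each group's mean removed so that the contrast played no part. Over 9 members and 8 marker lists 72 relations were computed on 10 arrays, with exact two-sided permutation within the groups. Glp1r followed the acinar mean most closely, with r = 0.857 (permutation p = 0.00458, adjusted p = 0.220) and rho = 0.806 (permutation p = 0.00917, adjusted p = 0.439). Without DKO replicate 1 and control replicate 4, the arrays farthest out, r was 0.696, and within DKO and control arrays alone it was 0.884 and 0.791. Abcc8 followed the islet transcription factors, with r = 0.825 (permutation p = 0.00715, adjusted p = 0.220) and rho = 0.709 (permutation p = 0.0193, adjusted p = 0.439), and r = 0.817 without the farthest 2 arrays. Abcc8 followed the neuron and Schwann cell mean about as closely, with r = 0.788 (permutation p = 0.00917, adjusted p = 0.220) and rho = 0.697 (permutation p = 0.0388, adjusted p = 0.441), and r = 0.648 without DKO replicate 2 and control replicate 4. None of these 3 relations passed the adjustment over the 72, and no other relation did. Since the neuron and Schwann cell mean was not tested as a measure of nerve content, its relations do not show where a member is expressed. Cacna1d and the hepatocyte mean had r = -0.728 (permutation p = 0.0194, adjusted p = 0.349). Kcnk16 and the acinar mean had r = 0.624 (permutation p = 0.0310, adjusted p = 0.3725), as G6pc2 and the neuron and Schwann cell mean had 0.711 (0.0299, 0.3725). For Cacna1a, r was -0.632 with the smooth muscle mean (0.0528, 0.475) and 0.129 with the neuron and Schwann cell mean (0.732, 0.911). For Slc2a2 and the hepatocyte mean, r was 0.656 (permutation p = 0.155, adjusted p = 0.698) and rho 0.261 (permutation p = 0.430, adjusted p = 0.878), and r was 0.123 without DKO replicate 1 and control replicate 2, so the relation rests on those arrays.

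**Figure D4:**
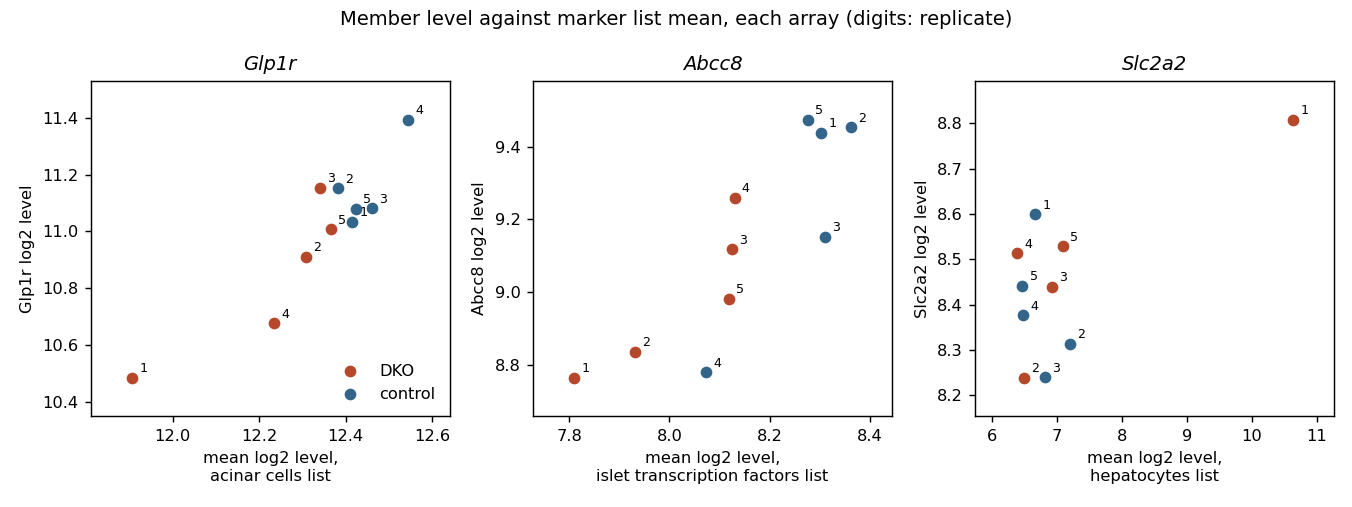
Log2 level of Glp1r, Abcc8 and Slc2a2 against the mean log2 level of the acinar, islet transcription factor and hepatocyte lists in each DKO (red) and control (blue) array; digits give the replicate. Glp1r and the acinar mean are both lowest in DKO replicate 1 and highest in control replicate 4, and DKO replicate 1 stands alone in the hepatocyte panel at 10.63.

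Among themselves the members showed little common variation within the groups. Of their 36 pairs 22 had r above 0, and the median r was 0.05. The closest pair was G6pc2 and Abcc8, with r = 0.723 (permutation p = 0.0360, adjusted p = 0.649) and rho = 0.733 (permutation p = 0.0301, adjusted p = 0.860), and r = 0.853 without the farthest 2 arrays. The KATP partners Abcc8 and Kcnj11 had r = 0.599 (permutation p = 0.0950, adjusted p = 0.729) and rho = 0.612 (permutation p = 0.0817, adjusted p = 0.860), and r = 0.155 without DKO replicate 1 and control replicate 4. In each pair the arrays left out were those farthest from the median level of the gene named first. For Kcnj11 the farthest were DKO replicate 5 and control replicate 4, and this pair was not computed without those. Slc2a2 and Kcnk16 ran most strongly against each other, with r = -0.770 (permutation p = 0.0135, adjusted p = 0.488) and rho = -0.564 (permutation p = 0.122, adjusted p = 0.860), and r = -0.721 without DKO replicates 1 and 2. The genes most like the mean of the standardised members over the 10 arrays, again with group means removed and as a description with no test, were Prrc2b (r = 0.967), C1s2 (0.956) and Lzts2 (0.955). None of these 3 passed the test between the groups (limma adjusted p-values 0.720 to 0.938).

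**Figure D5:**
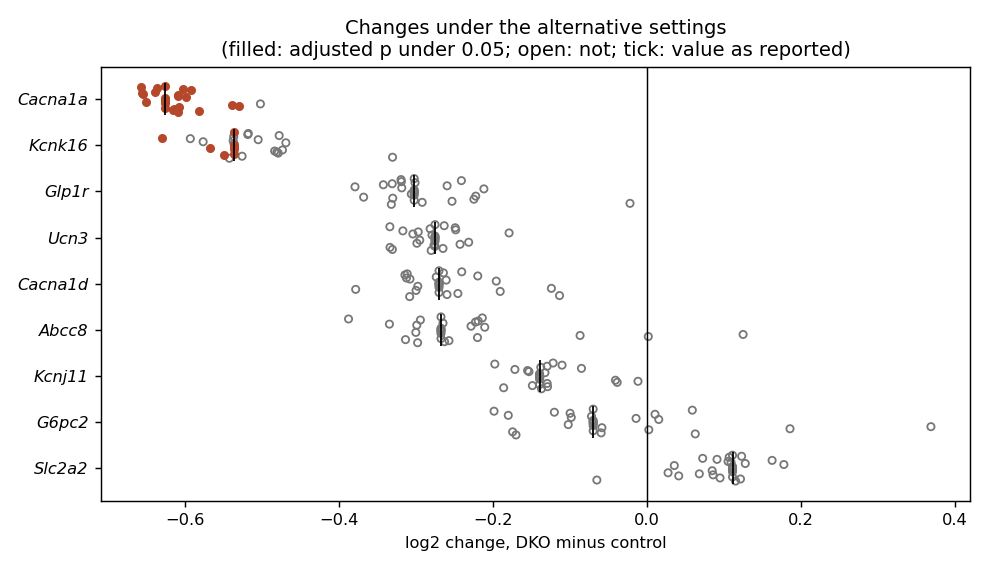
Log2 change, DKO minus control, of each of the 9 genes under the 26 alternative settings (25 for Kcnj11); filled points have an adjusted p under 0.05, open points do not, and the black tick is the value as reported. Cacna1a was filled in 25 of 26 settings and Kcnk16 in 9, and no other gene was filled in any.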

How the data were processed

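Mouse pancreas RNA was measured on Affymetrix Mouse Gene 1.0 ST arrays in 5 DKO and 5 control samples. The submitters' processing notes name Affymetrix Expression Console; neither its version and algorithm nor the genome build is stated in the labels. The deposited log2 levels, 1 per transcript cluster and sample, lie between 2.79 and 13.94 and were used as deposited by the authors.

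Of 35556 clusters 21789 had 1 gene symbol in the platform annotation, 1621 several and 12146 none. Of those with 1 symbol 21698 were found in RefSeq (GRCm38.p6), which gave the current symbols, and the brightest cluster of a gene over all arrays stood for it. The moderated two-sided test of limma 3.58.1 (lmFit and eBayes under R 4.3.3, 10.96 total degrees of freedom) set DKO against control, adjusted over 19938 genes and tested on simulated data. Intervals and SEs are from that fit.

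The members and lists were chosen with earlier results of these data known. Named genes are the members, Stk4 and Stk3, genes of a list past the threshold or among its 4 smallest p-values, and the 3 genes most like the members' mean. Kcnk5, G6pc, Ins2, Cpe, Cpa1, Krt18, Sox9, Muc1, Sstr1, Sstr3, Sstr5, Xist and Eif2s3y were named after their values were seen. Alternatives covered normalization, filter, variance model, array weights, clusters per gene, covariates, a replicate block, an exact permutation test and leaving out each array.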

Additional observations from a re-analysis of the deposited data

Results flagged for a closer look

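Ucn3 in DKO replicate 3 measured 7.73, against 8.13 to 8.28 in the other 4 DKO arrays. Its gap to the next array was 0.726 of the range of the DKO group, above Dixon's critical value of 0.71 for 5 samples. It was the only such value among 18 groups tested (9 genes in DKO and control arrays), and chance flags about 1 group in 20. No explanation was tested.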

How the results depend on the processing

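The number of members past the threshold, 2 as reported, was 1 with array medians subtracted, with unmoderated variance and with the Xist, islet hormone, hepatocyte, islet granule or acinar covariate, and 0 (limma; 2 at an unadjusted p under 0.05) with the islet transcription factor covariate. It ranged from 1 to 2 on leaving out each array, with 2 only without control replicate 1. Cacna1a lost its call only with the islet transcription factor covariate. Over all genes, 487 called (73 lower) became 298 (34) with unmoderated variance, 78 (3), 115 (11), 37 (3) and 95 (5) with the hormone, granule, islet transcription factor and acinar covariates, and 178 (16) with the replicate block, and 260 to 433 (28 to 64) on leaving out each array. The count of lower genes was 46 with the Xist and with the hepatocyte covariate. The granule, transcription factor and acinar covariates were chosen after seeing the data.

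The sign of Abcc8 turned with the granule (0.00188) and islet transcription factor (0.13) covariates, and that of Slc2a2 with the acinar covariate (-0.0649). That of G6pc2 turned with the hepatocyte (0.00253), granule (0.19), islet transcription factor (0.37) and acinar (0.0629) covariates, and without DKO replicate 1, control replicate 1 or control replicate 5 (0.02, 0.01 and 0.06). The cause was not tested. Leaving out single arrays moved G6pc2 between -0.198 and 0.0591. Gpd2 lost its call with the replicate block (adjusted p = 0.0644) and Rbpjl too (0.0552), and Gpd2, Kcnk3 and Ptprn2 lost theirs with each islet covariate and the acinar one (0.0760 to 0.204). Sstr2 passed without control replicate 1 (0.0249) and with the dimmer genes left out (0.0342), where Kcnj11 was not fitted.

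Samples of equal number deviated together in 2 of 5 numbers (r from -0.27 to 0.29). The labels give no pairing. Samples of unequal number were not compared, so these values cannot decide whether the numbers pair the samples. With the replicate block Cacna1a kept its change of -0.63 (adjusted p = 0.0290) and Kcnk16 its change of -0.54 (0.0440), and 2 members passed.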
